A study of Mus musculus with 12 samples.

Results

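Kupffer cells are the macrophages that live in the liver, and 10 genes that mark them or macrophages in general were followed with age in mouse liver RNA-seq: Marco, Clec4f, Cd5l, Timd4, Vsig4, Adgre1, Cd68, Csf1r, C1qa and Cd163. The rule that chose them named known markers and used no measured value, although earlier results of these data were known, and they are 10 of the 53465 genes in the count table. The livers came from C57BL/6N mice that were young (3 months), middle-aged (12 months) or aged (18 months). Each of the 12 libraries was made from whole liver of 1 animal, 4 per age, and the labels name no engineered allele and no treatment for any group.

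Kupffer cells sit inside the liver sinusoids, where they take up bacteria, dead cells, old red cells and modified lipids from the blood. Most of them descend from embryonic precursors and renew themselves in place, and monocytes from the blood can enter the niche when it empties. Clec4f, Cd5l, Timd4, Vsig4 and Marco are used to tell resident Kupffer cells from other liver cells, whereas Adgre1, Cd68, Csf1r, C1qa and Cd163 are expressed by macrophages of many tissues. In a whole-liver library, fewer macrophages and less RNA per macrophage cannot be told apart.

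All 10 genes were detected in every library, with raw counts from 31 for the lowest value of Marco to 1480 for the highest value of Clec4f. Library totals over genes ran from 8124312 to 10527159 counts. Young replicate 2 stood apart from the other libraries, with 19.2% of its gene counts from mitochondrial genes against 5.48% to 10.7% elsewhere, and 10.6% of all counts from synthetic spike-in RNA against 1.59% to 6.23%. Young replicate 3 and middle-aged replicate 1 had 22284 and 19982 genes detected, against 16361 to 17563 in the other 10 libraries. The spike-in RNAs also divided the libraries into sets: over 31 spike-ins, the log counts correlated at 0.9968 or more within replicates 1 and 2 of all ages and within replicates 3 and 4, and at 0.9252 or less between these sets. Young replicate 3 and middle-aged replicate 1 are called the doubted libraries below.

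Of the 10 genes, 7 were matched to a promoter sequence in the RefSeq table (GRCm38.p6), and the 250 bases before the start of Marco and of Cd5l are printed here, 5′ to 3′ on the strand of the gene. Marco is the marker that passed the test between aged and young livers, and Cd5l is a resident Kupffer cell gene that did not. Capitals mark GAGGAAG, the core letters bound by the macrophage factor PU.1, or its reverse complement CTTCCTC. Marco lies on the minus strand of chromosome 1 and this stretch is chr1:120505025-120505274. Cd5l lies on the plus strand of chromosome 3 and its stretch is chr3:87357631-87357880.
Marco: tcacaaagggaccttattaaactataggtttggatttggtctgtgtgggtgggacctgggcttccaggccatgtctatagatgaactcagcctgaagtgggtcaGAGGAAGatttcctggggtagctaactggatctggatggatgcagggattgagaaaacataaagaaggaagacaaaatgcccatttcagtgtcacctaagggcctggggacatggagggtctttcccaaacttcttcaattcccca
Cd5l: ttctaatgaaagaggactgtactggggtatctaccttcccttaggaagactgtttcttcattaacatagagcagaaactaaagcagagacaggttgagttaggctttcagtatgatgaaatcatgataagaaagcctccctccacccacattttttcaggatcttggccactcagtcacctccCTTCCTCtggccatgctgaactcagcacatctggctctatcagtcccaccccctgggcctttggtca
The letters stand 146 bases before the start in Marco and 67 bases before it in Cd5l. Both strands were searched, and GAGGAAG was found in 2 of the 7 matched promoters and in 10.61% of 32851 promoters of the same length. TGACCT, core letters of nuclear receptors, was found in Clec4f and Timd4 and in 14.02% of all promoters. These are matches of letters only, and the motif present in Marco was also present in a marker that did not pass.

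Marco (ENSMUSG00000026390, chr1:120474538-120505024) encodes a scavenger receptor with a collagen-like stalk that binds bacteria and particles, and it was the marker with the widest spread between livers. Its normalised counts, which are counts divided by a library size factor, were 58.4, 53.5, 36.7 and 79.1 in young replicates 1 to 4. Middle-aged livers had 58.6, 71.8, 181.9 and 54.1, and aged livers had 790.8, 104.0, 96.1 and 261.0. All 4 aged livers lay above all 4 young livers, and 3 of the 4 middle-aged livers lay within the range of the young. Among the aged livers the highest value was in replicate 1, and replicates 2 and 3 were close to the highest young value.

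Marco rose in aged versus young livers by a log2 fold change of 2.46 (SE 0.69, DESeq2's Wald test, adjusted p = 0.0178). The mean of the young livers was 56.9 ± 17.4 and that of the aged livers 313.0 ± 327.5 (SD, n = 4 each). Of all genes tested in this comparison, 3.58% passed the same threshold and 7.53% had groups that did not overlap. Marco also passed the likelihood ratio test across the 3 ages (adjusted p = 0.0191), as did 6.96% of genes. Middle-aged livers stood in between, with a log2 fold change of 0.69 over young (SE 0.69, adjusted p = 0.620) and of 1.77 from middle-aged to aged (SE 0.69, adjusted p = 0.251), and neither step passed in DESeq2.

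The size of the Marco difference depended on single livers, while its direction did not. The log2 fold change lay between 1.43 and 2.76 when each of the 12 libraries was left out in turn. It was 1.43 without aged replicate 1, with an adjusted p of 0.0273 (DESeq2). The call was lost without young replicate 1, 2 or 3 (DESeq2 adjusted p = 0.0526, 0.0858 and 0.0829), and without aged replicate 4 DESeq2 gave no p. Without both young replicate 3 and middle-aged replicate 1 the log2 fold change was 2.30 and the adjusted p was 0.102 in DESeq2. Within the spike-in sets it was 3.00 over replicates 1 and 2 and 1.62 over replicates 3 and 4, with adjusted p of 0.183 and 0.538 in DESeq2. edgeR's quasi-likelihood test after a filter on low counts gave 2.44 with an adjusted p of 0.0750.

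**Figure D1:**
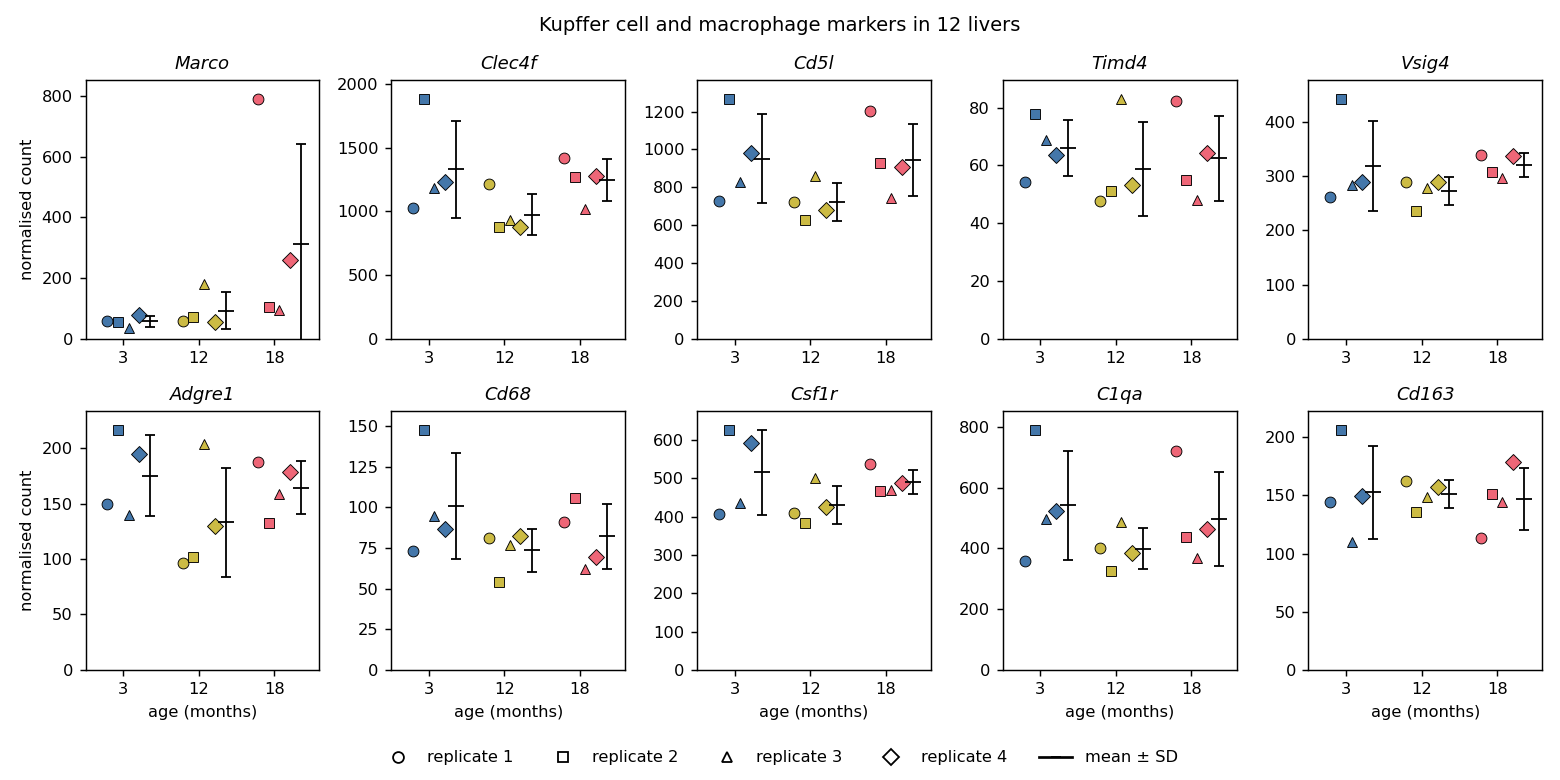
Normalised counts (vertical axis, starting at 0) of the 10 markers by age in months, with a point for each liver, a shape for each replicate number and the mean ± SD of 4 livers beside the points; the lower SD bar of Marco in aged livers is cut at 0. The 4 aged livers lie between 96.1 and 790.8 for Marco and above the young livers, and young replicate 2 is the highest liver for 8 of the 10 genes.

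Clec4f encodes a lectin that in mice is restricted to Kupffer cells, and it was the most abundant marker. Its normalised counts were 1024, 1885, 1186 and 1232 in young livers. Middle-aged livers had 1213, 879.8, 932.5 and 876.0, and aged livers had 1424, 1269, 1021 and 1277. Young and aged livers overlapped throughout, and 3 of the 4 middle-aged livers lay below every young and aged liver. Relative to young livers the log2 fold change was -0.45 in middle-aged (SE 0.18, DESeq2 adjusted p = 0.116) and -0.09 in aged livers (SE 0.18, adjusted p = 0.876). Middle-aged against young passed in DESeq2 without young replicate 1 (log2 fold change -0.55, adjusted p = 0.0365) and without middle-aged replicate 1 (-0.57, adjusted p = 0.0410).

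Cd5l encodes a secreted scavenger-receptor-like protein, also called AIM, that macrophages release into the blood. Young livers had normalised counts of 727.1, 1267, 829.4 and 980.2, middle-aged livers 722.8, 628.5, 859.2 and 681.5, and aged livers 1201, 930.5, 742.8 and 906.4. The young mean was 951.0 ± 235.1, the aged mean 945.3 ± 190.0 and the middle-aged mean 723.0 ± 98.7 (SD, n = 4 each). The log2 fold change from young to middle-aged was -0.39 (SE 0.18, DESeq2 adjusted p = 0.179) and that from middle-aged to aged was 0.39 (SE 0.18, adjusted p = 0.437).

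Vsig4 encodes the complement receptor CRIg, which binds opsonised bacteria. Its counts were 340.2, 307.3, 297.1 and 337.9 in aged livers, and those in middle-aged livers were 289.9, 236.1, 278.1 and 289.6. The 4 aged livers lay above the 4 middle-aged livers without overlap, as in 6.55% of genes tested, and the log2 fold change of 0.23 did not pass (SE 0.16, DESeq2 adjusted p = 0.724). Young livers ranged from 261.1 to 443.2, which took in all 4 aged and 3 of the 4 middle-aged livers. Timd4 encodes TIM-4, a receptor for phosphatidylserine on dying cells that marks long-resident Kupffer cells. It stayed between 47.7 and 83.0 in all 12 livers, with the highest value in middle-aged replicate 3 and a 95% interval of the aged versus young log2 fold change from -0.57 to 0.41.

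Among the general macrophage genes, C1qa, a chain of the complement starter C1q, was at 359.8, 789.6, 497.6 and 522.3 in young livers. Middle-aged livers had 400.1, 324.1, 486.5 and 384.9 and aged livers 720.6, 436.3, 367.0 and 462.2. The high liver was replicate 2 in young and replicate 1 in aged mice, and all ages overlapped. Csf1r, the receptor for the growth factors CSF1 and IL-34 on which macrophages depend for survival, varied least, from 383.4 to 626.6, a 1.63-fold range. Csf1r shares 873 exonic bases with Hmgxb3 on the opposite strand, and the sources used here do not say whether counting used strand. Adgre1, which encodes the macrophage surface protein F4/80, ranged from 96.3 to 216.5. Cd68, a glycoprotein of macrophage lysosomes, ranged from 53.9 to 147.7. Cd163, the receptor that clears haemoglobin bound to haptoglobin, ranged from 110.2 to 206.3. None of these 5 genes passed a comparison of ages in DESeq2. Adgre1 passed for middle-aged against young only without middle-aged replicate 3 (log2 fold change -0.68, adjusted p = 0.0387), where its count was 204.0 against 96.3 to 130.3 in the other 3 livers.

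Counts per kilobase of exon place the levels of the genes on a common scale. The mean over 12 livers was 479.6 for Clec4f, 460.8 for C1qa and 428.8 for Cd5l, followed by Vsig4 at 205.2, Csf1r at 82.9, Marco at 79.9, Cd68 at 68.0, Adgre1 at 48.7, Timd4 at 28.7 and Cd163 at 27.5. Cd5l lay above Vsig4, Vsig4 above Csf1r and Adgre1 above Timd4 in all 12 livers. Clec4f lay above C1qa, and C1qa above Cd5l, in 8 of 12 livers, so the order of the top 3 genes was not constant. Marco had its place through the aged mean of 162.6 ± 170.1 per kilobase, against 29.6 ± 9.06 in young livers (SD, n = 4), and lay above Cd68 in 4 of 12 livers. Timd4 lay above Cd163 in 4 of 12 livers, and with the length of the longest transcript Cd163, at 33.8, came before Timd4. That length put Csf1r at 101.9 and left its place unchanged.

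Taken by comparison, aged versus young livers gave 1 marker past the threshold, Marco, and the other 9 had log2 fold changes between -0.29 and 0.01 with adjusted p of at least 0.653 in DESeq2. Their 95% intervals ran from -0.79 at the lowest, for Cd68, to 0.41 at the highest, for Timd4. The median of the 10 was -0.08, beside 0.01 over all 11804 genes with a mean count of at least 10. Without young replicate 2 the median turned to 0.11 and 9 of the 10 genes lay above 0. In that fit no marker passed.

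In middle-aged versus young livers no marker passed in DESeq2, and 2 had an unadjusted p below 0.05 (Clec4f and Cd5l), where 6.41% of genes tested passed and 16.0% did not overlap. The log2 fold changes of 9 markers were below 0 and the median was -0.33, beside 0.01 over all genes. Without young replicate 2, 8 were below 0 and the median was -0.18. edgeR without a count filter passed C1qa, Clec4f and Marco, and edgeR with the filter passed none. In aged versus middle-aged livers no marker passed in DESeq2, 2 had an unadjusted p below 0.05 (Marco and Cd5l), and 1.14% of genes tested passed. There 9 markers were above 0 and the median was 0.27, beside 0.00 over all genes. Without aged replicate 1 that median was 0.17. These comparisons share groups of livers, so the lower middle-aged values enter both.

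**Figure D2:**
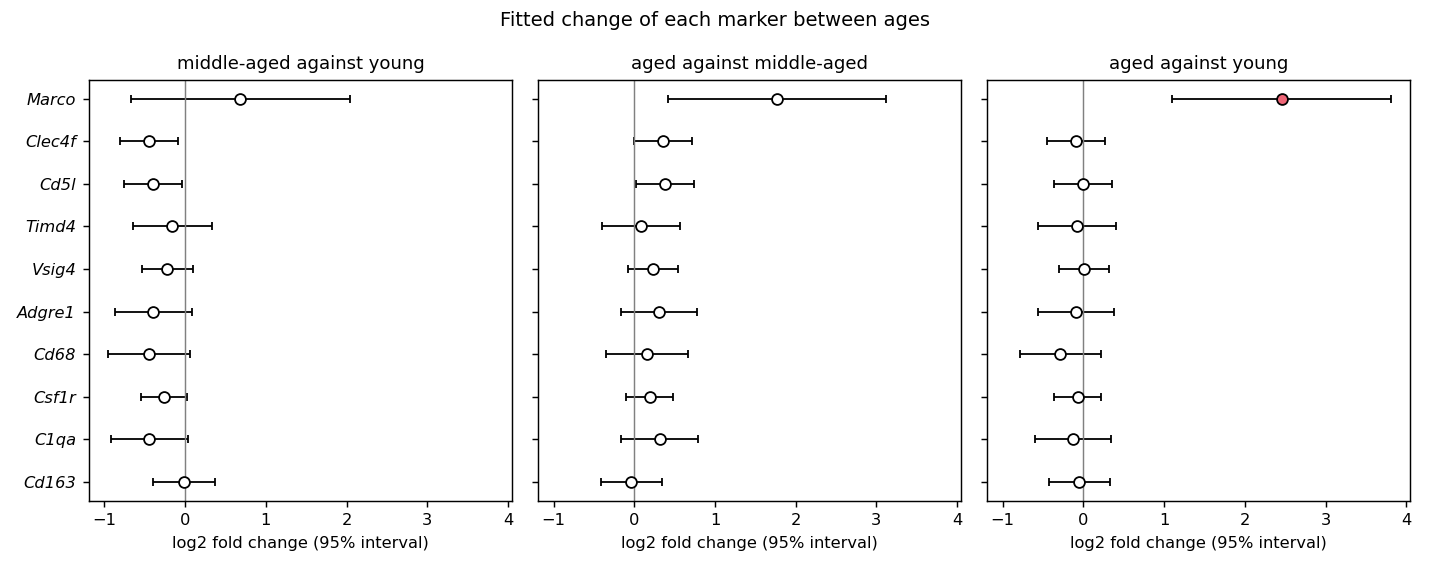
Fitted log2 fold change of each marker (horizontal axis) with its 95% interval in the 3 comparisons of ages; the filled point passed the threshold and open points did not. Marco stands at 2.46 in aged against young livers, and the other 9 genes lie between -0.29 and 0.01 in that panel.

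Young replicate 2 had the highest count for 8 of the 10 markers, all but Marco and Timd4. Aged replicate 1 was among the highest 2 livers for 6 markers, and middle-aged replicate 2 was the lowest liver for 5. The normalised counts of the 10 genes summed to between 3260 and 5713 in young livers. The sums lay between 2867 and 3751 in middle-aged mice and between 3407 and 5489 in aged mice. The largest sums were those of young replicate 2 and aged replicate 1.

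A ratio to Clec4f asks whether a marker differed relative to a Kupffer cell gene of the same liver. The log2 ratio of Marco to Clec4f had a mean of -4.54 ± 0.59 at 3 months and of -3.57 ± 0.87 at 12 months (SD, n = 4 each). At 18 months the mean was -2.53, and the 4 livers ran from -3.60 to -0.85. Aged livers exceeded young livers by 2.01 without overlap, with an exact two-sided permutation p of 0.0286, the smallest that 4 against 4 livers can give. Adjusted over the 27 ratios tested it was 0.579. Without any 1 of the young livers the exact permutation p was 0.0571 or 0.0857, where 3 against 4 livers can reach 0.0286. For the 8 other markers, none of the 24 differences had an exact p under 0.05. Cd163 came nearest, 0.44 higher relative to Clec4f in middle-aged than in young livers (exact permutation p = 0.0571, adjusted 0.579), and 0.54 higher without young replicate 1 (exact permutation p = 0.0286). For Cd5l the ratio was -0.48 ± 0.10 at 3 months, -0.43 ± 0.26 at 12 months and -0.41 ± 0.11 at 18 months (SD, n = 4 each).

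**Figure D3:**
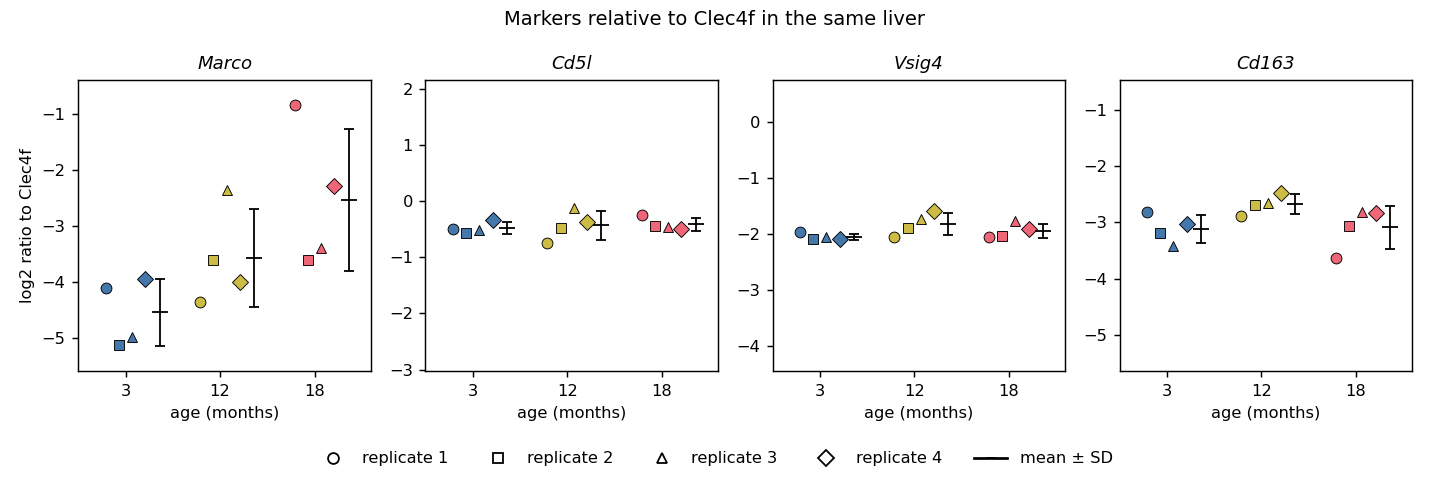
Log2 ratio of 4 markers to Clec4f in the same liver (vertical axis, the same span in every panel) by age in months, with a point for each liver and the mean ± SD of 4 livers. Marco moves from a mean of -4.54 in young to -2.53 in aged livers, and Cd5l stays between means of -0.48 and -0.41.

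Many pairs of the other markers varied together from liver to liver. Over 12 livers, Pearson's r of log2 normalised counts was 0.956 for Cd5l and C1qa, 0.893 for Cd5l and Csf1r, 0.878 for Clec4f and Vsig4 and 0.870 for Clec4f and Cd5l. For Cd5l and C1qa, Spearman's rho was 0.874 (permutation p = 0.00045, adjusted 0.00675) beside the Pearson p of 1e-05 (adjusted 0.00045), which is the smallest 100000 permutations can give. Without the 2 livers farthest from the median of Cd5l, r was 0.878. Of 45 pairs, 21 passed by Pearson's r and 13 by Spearman's rho after adjustment, and 20 passed when deviations from the age means were used. Deviations were shuffled over all 12 livers although those within an age are not independent, so p-values from deviations may be too small. The share that passes among pairs of other genes was not computed, so whether these counts are particular to the markers is not known. Among 8873 genes outside the list, some came as near to a marker, with r = 0.944 for Zcrb1 and C1qa and 0.942 for Uqcc3 and Cd5l. None of the 9 pairs with Marco passed by either measure, with r between -0.20 and 0.48, and the median r was 0.736 over the 36 pairs without Marco and 0.326 over the 9 with it. For Marco and Timd4, r of the deviations from the age means was 0.779 (permutation p = 0.00299, adjusted 0.00897), and r of the levels was 0.482 (p = 0.109). For this pair rho of the levels was 0.252, and r of the levels was 0.186 without the 2 livers farthest from the median of Marco. Counted from the highest liver, Marco and Timd4 ranked 1 and 2 in aged replicate 1, and 3 and 1 in middle-aged replicate 3. Some pairs rested on few livers. Vsig4 and Cd68 had r = 0.765 and rho = 0.483, and r fell to 0.114 without the 2 farthest livers. The livers share a library with every pair, so scaling enters all of these values.

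**Figure D4:**
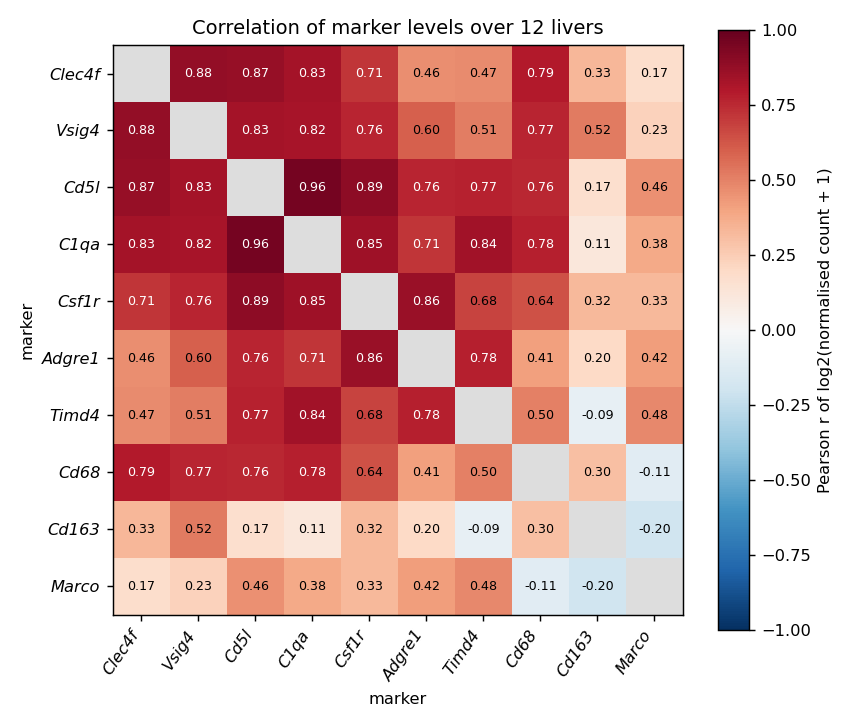
Pearson's r of log2(normalised count + 1) over 12 livers for each pair of markers (rows and columns), from blue at -1 to red at 1. Cd5l, C1qa, Csf1r, Clec4f and Vsig4 form the block of high values, with 0.96 for Cd5l and C1qa, and the row of Marco runs from -0.20 to 0.48.

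The genes most like each marker over the 12 livers were sought among 8873 genes with a mean count of at least 50, taking the 3 with the highest Pearson's r. C1qb and C1qc, which encode the other chains of C1q, were nearest to C1qa (r = 0.971 and 0.957). C1qc was also nearest to Cd5l (r = 0.947) and to Csf1r (r = 0.917). For Timd4 the nearest gene was Cfp, which encodes the complement regulator properdin (r = 0.890). For Adgre1 it was Lpl, lipoprotein lipase (r = 0.890), followed by Npc2, a cholesterol carrier of lysosomes (r = 0.889), and for Cd68 it was the interferon regulator Irf7 (r = 0.890). The genes nearest to Clec4f were Snf8, Stk19 and Srp9 (r = 0.919, 0.919 and 0.914), and those nearest to Vsig4 were Prkag1, Nxf1 and Sat1 (r = 0.848, 0.839 and 0.836). Marco had Ptp4a2 as its nearest gene at r = 0.852, and Cd163 had Arl6ip6 at r = 0.882. Of the 30 places, 7 were filled by the same gene with Spearman's rho and 10 without aged replicate 1, so most of this order was not stable. C1qb and C1qc stayed nearest to C1qa under both.

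Beside the markers, 16 further lists held 136 genes of macrophage pathways and other liver cells. In aged versus young livers, 5 of the 121 tested rose and 4 fell, where 3.58% of all genes tested passed. In middle-aged versus young livers, 2 of 97 rose and 3 fell, where 6.41% of all genes tested passed. In aged versus middle-aged livers 0 of 90 passed in DESeq2, where 1.14% of all genes tested passed. There 16 had an unadjusted p below 0.05, and the share of all genes at that level is not given here. edgeR with the filter passed 2 of these genes in aged versus young livers (Siglec1 and Lipa), 1 in middle-aged versus young livers (Fabp5) and 0 in the last comparison, and edgeR without it passed 20, 25 and 14. Over all genes, in the same order, edgeR with the filter passed 172, 280 and 13 of 12099. Without it, edgeR passed 880, 1154 and 446 of 28449.

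Siglec1, the sialic-acid-binding receptor of resident macrophages also called CD169, fell in the scavenger and lectin receptor list. Young livers had normalised counts of 66.9, 84.1, 58.1 and 84.0 and aged livers 35.1, 41.4, 34.1 and 39.3, and the middle-aged mean was 42.8 ± 13.1 (SD, n = 4). Every aged liver lay below every young liver. The log2 fold change was -0.97 in aged (SE 0.25, DESeq2 adjusted p = 0.00769) and -0.77 in middle-aged livers (adjusted p = 0.0365). The aged call held in edgeR with the filter (adjusted p = 0.0469), in 10 of 12 DESeq2 fits that left out a library and without the doubted libraries (adjusted p = 0.0129), and was lost with the replicate number as a block (adjusted p = 0.0567). The middle-aged call held in 6 of those 12 fits (a further 3 gave no adjusted p) and was lost in edgeR with the filter, under the block and without the doubted libraries (adjusted p = 0.0743, 0.150 and 0.103). In the same list Cd36, a receptor for fatty acids and oxidised lipoprotein that hepatocytes also express, rose by 1.74 in aged livers (adjusted p = 0.0160), and its aged counts were 260.9, 432.5, 1502 and 1132 in order of replicate number. Fitted within the spike-in sets, the change was 0.42 for the set of replicates 1 and 2, against 2.47 for the other set. The Cd36 call held in 8 of 12 DESeq2 fits that left out a library and was lost without the doubted libraries (adjusted p = 0.0854), under the block (0.0930) and in edgeR with the filter (0.0578). The other 9 of 11 genes tested in this list did not pass.

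Of 10 macrophage transcription factors tested, Id1 passed in aged versus young livers. Id1, an inhibitor of helix-loop-helix factors that responds to BMP signals in many cell types, rose by 1.36 (DESeq2 adjusted p = 0.0212), by 0.40 over replicates 1 and 2 and by 1.97 over replicates 3 and 4. It was lost without the doubted libraries (adjusted p = 0.0607) and in edgeR with the filter (0.0891). Spi1, which encodes PU.1, was tested and did not pass.

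**Figure D5:**
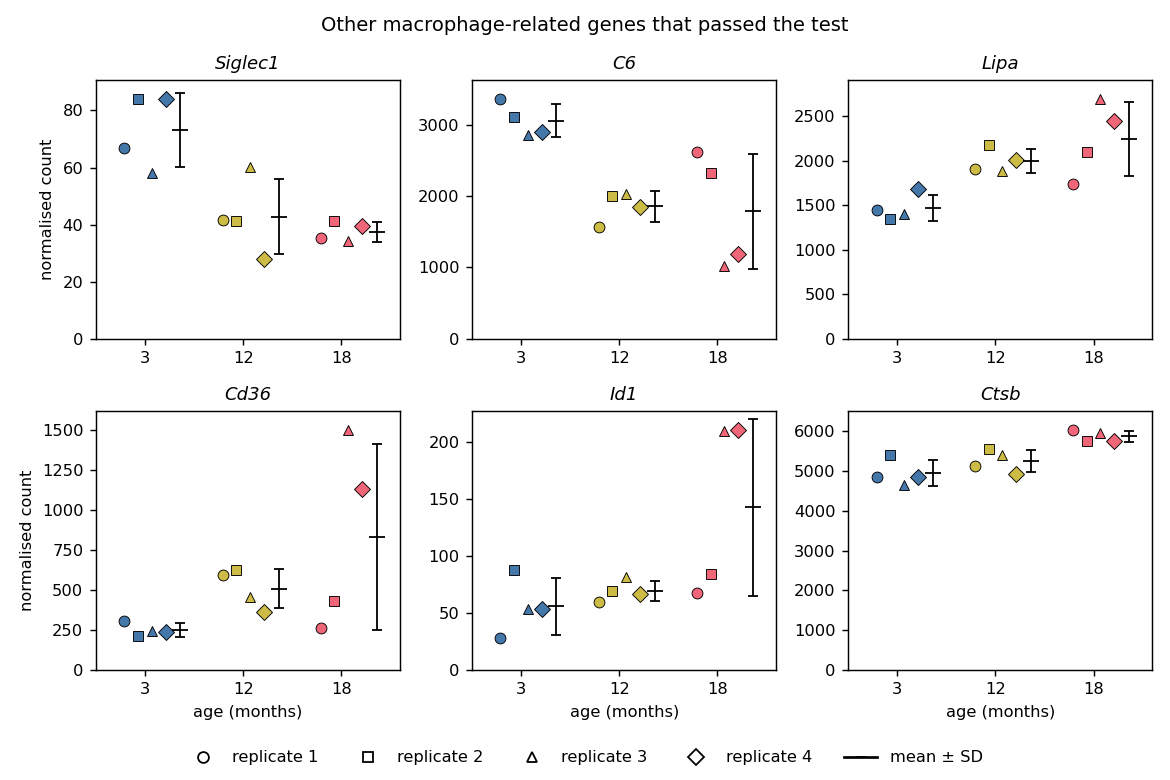
Normalised counts (vertical axis, starting at 0) of 6 genes from the further lists that passed a comparison with young livers, by age in months, with a point for each liver and the mean ± SD of 4 livers. Siglec1 is lower and Lipa higher in all 4 aged than in all 4 young livers, and the high aged values of Cd36 and Id1 are those of replicates 3 and 4.

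Among 12 other resident Kupffer cell genes, 1 of 11 tested passed. C6, a complement component that hepatocytes also make, fell by 0.77 in aged (DESeq2 adjusted p = 0.0422) and by 0.72 in middle-aged livers (adjusted p = 0.0488), and these calls held in 3 and 4 of 12 fits that left out a library. Without the doubted libraries the adjusted p was 0.0808 and 0.215. Lysosome genes gave 2 of 11 past the threshold in aged livers, both higher and both also expressed by hepatocytes. Lipa, lysosomal acid lipase, rose by 0.61 (adjusted p = 0.000464), passed in all 12 fits that left out a library and held in edgeR with the filter. Lipa also rose by 0.44 in middle-aged livers (DESeq2 adjusted p = 0.0194), a call that held in 8 of 12 such fits and was lost in edgeR with the filter (adjusted p = 0.0782) and without the doubted libraries (0.143). Ctsb, the protease cathepsin B, rose by 0.25 (adjusted p = 0.00608), and was lost in edgeR with the filter (adjusted p = 0.143), under the block (0.0922) and without the doubted libraries (0.151). In the haem and iron list Hamp, the iron hormone hepcidin of hepatocytes, rose by 0.80 in aged livers (adjusted p = 0.0203), and the other 8 genes did not pass. Hamp was lost without the doubted libraries (adjusted p = 0.0812) and in edgeR with the filter (0.0979), and its change was 0.54 over replicates 1 and 2 and 1.03 over replicates 3 and 4. Lrp1, a receptor for apoptotic cells and lipoprotein remnants, rose by 0.43 in middle-aged livers (adjusted p = 0.0181), the only 1 of 7 tested genes for dead cell uptake. Lrp1 was lost in edgeR with the filter, under the block and without the doubted libraries (adjusted p = 0.0852, 0.0630 and 0.0695). Fabp5, a fatty-acid-binding protein from the lipid-laden macrophage list, fell by 1.99 on the log2 scale in middle-aged livers (adjusted p = 0.0143), and its young livers ranged from 215.8 to 848.1. Without the doubted libraries its adjusted p was 0.137, and its change was -2.58 over replicates 1 and 2 and -1.17 over replicates 3 and 4.

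No gene passed in aged or middle-aged versus young livers in 4 further macrophage lists by DESeq2. These were C1q and complement receptors (6 tested in aged livers, median log2 fold change -0.18 over the 5 with a mean count of at least 10), CSF1 receptor ligands and myeloid signalling (8 tested, median -0.28 over 6), monocyte and recruited macrophage genes (8 tested, median -0.21 over 6) and inflammatory cytokines and chemokines (5 tested, median -0.39 over 4). C1qb had a young mean of 713.1 ± 207.5 and an aged mean of 595.2 ± 168.1 (SD, n = 4 each). For Csf1, the main ligand of Csf1r, these means were 84.7 ± 29.3 and 113.1 ± 52.3 (SD, n = 4 each). Over these 4 lists of 34 genes, DESeq2 gave an adjusted p to 27 in aged and to 16 in middle-aged versus young livers. An unadjusted p below 0.05 was found for 1 gene in aged and 5 in middle-aged livers, edgeR with the filter passed 0 in both, and edgeR without it passed 2 and 6. Lyz2, a lysozyme of monocytes and macrophages, had a mean of 1082 ± 292.8 in young and 1073 ± 281.2 in aged livers. Middle-aged replicate 3, which had the middle-aged maximum of Marco, had a summed count of 3692 over the monocyte list, against 738.7 to 1589 in the other 11 livers. Lyz2 alone gave 3492 of that sum. Ccr2 and Plac8 were at 24.7 and 55.6 in this liver, against young means of 16.8 and 67.7.

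Markers of other liver cells were summed in the same way. Sinusoidal endothelial markers, of which 8 of 8 had a mean of at least 10, had sums between 2013 and 3404 in young livers, between 2026 and 2474 at 12 months and between 2256 and 2410 at 18 months. Young replicate 2 held the highest sum for these, for neutrophil markers (342.6 against 19.9 to 114.4 elsewhere, 3 of 6 with a mean of at least 10) and for red cell markers (86370 against 9671 to 49840, 5 of 5). It held the lowest sum of hepatocyte markers (710200 against 734400 to 971200, 6 of 6). Alb gave 485700 of that sum. In the same liver Apoa1 was at 120100, the young maximum, and Ttr at 57570, against a young mean of 55140. The low sum therefore does not stand for each hepatocyte marker. Aged replicate 1, the liver with most Marco, was second for neutrophil markers at 114.4 and had 2286 for endothelial markers. Lymphocyte markers, 5 of 9 with a mean of at least 10, were highest in middle-aged replicate 3, at 373.5 against 70.3 to 255.9. No listed marker was at 0 in every library. Among red cell markers, Hbb-bs, a beta-globin, fell by 1.67 and Alas2, the haem enzyme of red cells, fell by 0.60 on the log2 scale in aged versus young livers (DESeq2 adjusted p = 0.0498 and 0.0255). These calls held in 4 and 9 of 12 fits that left out a library, both were lost without the doubted libraries (adjusted p = 0.0808 and 0.0506) and in edgeR with the filter (0.0874 and 0.0919), and Hbb-bs was lost under the block (0.174). No endothelial, neutrophil, lymphocyte or hepatocyte marker passed in DESeq2 or in edgeR with the filter for any pair of ages. At an unadjusted p below 0.05 there were 3 in aged versus young, 4 in middle-aged versus young and 2 in aged versus middle-aged livers, and edgeR without the filter passed 2, 4 and 0. In the same order of comparisons, DESeq2 gave an adjusted p to 24, 19 and 16 of these 29 markers. For neutrophil markers it gave one to 3, 1 and 0 of 6, and for lymphocyte markers to 7, 4 and 2 of 9. S100a8 and S100a9 had none in any comparison and so could not pass. Their log2 fold changes were -2.69 and -2.42 in middle-aged versus young livers. The part of these cells in the marker values was not tested.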

How the data were processed

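RNA-seq of whole liver from 12 mice was used. The authors deposited raw counts of reads per gene, as Ensembl identifiers, with 92 spike-in rows that were left out here. The submitters' processing notes name STAR 2.5.2b, SAMtools 1.9, featureCounts, R 3.6.3, edgeR 3.28.1 and DESeq2 1.26.0 and the builds mm10 and GRCm38, without their roles. The strand setting is not given in the sources used here, and the labels' protocol and design text differ from the 4 livers per age listed. The study's text calls its RNA-seq of 3 ages public data, and it also describes RNA-seq of its own from 4 young and 4 old livers. The tests of age set differences against the spread between these animals, except that edgeR without a filter on low counts gave no gene its own spread.

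Symbols, positions and exon lengths came from GENCODE M21. Genes with any count (28449) were fitted in DESeq2 1.42.0 (R 4.3.3) with a design of age alone, size factors by median of ratios, default independent filtering and the Cook rule, using Wald tests for 3 pairs of ages and a likelihood ratio test across ages. An adjusted p (Benjamini-Hochberg over all genes tested) under 0.05 passed. In simulated counts for aged against young livers, over 16217 genes, 99.5% of 200 genes changed 4-fold were recovered by DESeq2, with 20 false calls. The changed genes were drawn from those with a mean count of at least 50. Smaller changes were not simulated, so this does not give the power for them. Ratios used log2 of normalised count plus 1 and exact permutation, and correlations 100000 permutations (numpy, scipy).

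The members and lists were chosen with earlier results of these data known. Named genes were all members, from each list every gene that passed and otherwise up to 3 of the highest mean, and for each member the 3 most correlated genes. Spi1 was named after its values were seen. A gene of the lists is not reported here and is in none of the list counts. Alternatives were edgeR 4.0.16 with and without a filter on low counts, TMM factors, other filters, the replicate block, the spike-in sets and fits that left out libraries. edgeR with the filter, its blocked form and correlations of deviations from age means were added after seeing the data. In edgeR without the filter the prior degrees of freedom came out infinite.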

Additional observations from a re-analysis of the deposited data

Results flagged for a closer look

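In 4 of the 30 groups of 4 livers (10 markers at 3 ages), a single liver stood farther from the rest than Dixon's test allows, where chance would single out about 1.5 groups. Marco was at 181.9 in middle-aged replicate 3, against 54.1 to 71.8 in the other middle-aged livers. Timd4 was at 83.0 in the same liver, against 47.7 to 53.1. That liver also had the highest sums of the monocyte and lymphocyte lists (3692 and 373.5), the first of them mostly from Lyz2 (3492). The part of these cells in the Marco and Timd4 values was not tested. Clec4f was at 1213 in middle-aged replicate 1, against 876.0 to 932.5, a liver with 19982 genes detected. Vsig4 was at 443.2 in young replicate 2, against 261.1 to 289.0, the liver with 19.2% mitochondrial counts. The value of 790.8 for Marco in aged replicate 1 was not singled out, since aged replicate 4 was also high at 261.0.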

How the results depend on the processing

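Timd4, Marco and Cd68 had the smallest lowest raw counts of the markers (48, 31 and 60), and the part of depth in their spread was not tested. All comparisons were limited by 4 livers per age. Of 810 refitted member fold changes, 744 kept their direction and their side of the threshold or gave no adjusted p, 47 turned their direction, 9 lost and 10 gained a call. Marco in aged against young without aged replicate 4 is among those that gave no adjusted p. The cause was not tested in any case.

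The number of markers that passed for aged against young livers, 1 in the DESeq2 fit, was 0 in edgeR with the filter, in spike-in set A (replicates 1 and 2), in set B (replicates 3 and 4) and without young replicate 3 and middle-aged replicate 1. It ranged from 0 to 1 over the fits that left out 1 library, and was 0 without young replicate 1, 2 or 3 or aged replicate 4. Across the 3 ages it was 0 in edgeR with the filter, 3 in edgeR without it, and 0 to 1 when 1 library was left out (0 without young replicate 1, 2 or 3, middle-aged replicate 2 or aged replicate 1 or 4). For middle-aged against young livers it was 3 in edgeR without the filter and 0 to 1 when 1 library was left out, with Clec4f without young or middle-aged replicate 1 and Adgre1 without middle-aged replicate 3. For aged against middle-aged livers it was 1, Marco, in edgeR without the filter, whose infinite prior degrees of freedom give no gene its own spread.

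Samples of different ages share replicate numbers, and the deviations of same-numbered samples correlated at -0.303 to 0.159, so the numbers were not treated as a pairing in the main fit. These correlations cannot exclude a batch shared by number, and the spike-in sets do follow the replicate numbers. With the replicate block, DESeq2 passed 0 markers for aged against young livers and 0 across ages, with a Marco log2 fold change of 2.13 (adjusted p = 0.106). Blocked edgeR with the filter also passed 0 for aged against young. Blocked edgeR without the filter passed 2 for middle-aged against young and 1 for aged against middle-aged. Under the block, Cd163 in middle-aged against young turned to 0.0088 in DESeq2, 0.0038 in edgeR with the filter and 0.030 in edgeR without it, and Cd5l in aged against young to 0.018 in edgeR without it. Sign flips within replicate numbers gave 2.01 for the ratio of Marco to Clec4f, with an exact p of 0.125, the smallest they allow.

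Log2 fold changes that turned sign were small. For aged against young, Cd5l turned to 0.015 in edgeR without the filter and 0.015 with TMM factors, and Cd163 in middle-aged against young to 0.0080 in both. In set A, aged against young turned to 0.10 for Cd5l, 0.064 for Timd4, -0.11 for Vsig4 and 0.014 for C1qa, and the ratio of Cd163 to Clec4f to -0.35. In set B it turned to 0.0053 for Adgre1 and 0.31 for Cd163. Set B also turned middle-aged against young to 0.037 for Timd4 and 0.22 for Cd163, and aged against middle-aged to -0.27 for Timd4, -0.26 for Cd68, -0.066 for C1qa and 0.087 for Cd163. Without young replicate 3 and middle-aged replicate 1, Vsig4 in aged against young turned to -0.041, and aged against middle-aged turned to -0.0045 for Timd4 and 0.0018 for Cd163.

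When each library was left out, aged against young ranged from -0.20 to 0.12 for Clec4f, -0.14 to 0.16 for Cd5l, -0.24 to 0.028 for Timd4, -0.075 to 0.20 for Vsig4, -0.18 to 0.024 for Adgre1, -0.17 to 0.032 for Csf1r, -0.36 to 0.11 for C1qa and -0.17 to 0.12 for Cd163, and all but Vsig4 turned positive without young replicate 2. Cd163 in middle-aged against young ranged from -0.14 to 0.16, and aged against middle-aged from -0.079 to 0.29 for Timd4 and -0.15 to 0.067 for Cd163. The ratio of Cd163 to Clec4f in aged against young ranged from -0.073 to 0.21.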

Other observations

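In aged livers, several genes of the macrophage-related lists fell apart by spike-in set, that is, replicates 1 and 2 against replicates 3 and 4. These genes were picked after their values were seen. C6 was at 2618 and 2328 in aged replicates 1 and 2 and at 1019 and 1184 in aged replicates 3 and 4, whereas the 4 young livers lay between 2858 and 3364. Cd36 and Id1 went the other way, with aged replicates 3 and 4 at 1502 and 1132 for Cd36 and at 208.9 and 210.1 for Id1. Aged replicates 1 and 2 had 260.9 and 432.5 for Cd36 and 67.2 and 83.8 for Id1. With 2 livers on each side no exact test can reach the threshold, and what the sets stand for is not given in the labels. Marco did not follow the sets in aged livers, where replicates 2 and 3 were low (104.0 and 96.1) and replicates 1 and 4 high (790.8 and 261.0).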
